A study of Mus musculus with 6 samples.

Results

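The genes described here are 10 genes of the circadian clock: Arntl, Npas2, Clock and Nfil3, called the activator arm, and Dbp, Tef, Hlf, Per2, Per3 and Ciart, called the output arm. They were taken by symbol from a table of 23194 genes, and all 10 were found and kept by the filter on low counts. The members were chosen by their read counts in injured against naive lungs, so that difference is given below as a description and not as a test. The mice were adult wild-type C57BL/6 animals, and RNA was sequenced from the whole left lung in 6 libraries. In 3 injured lungs the left pulmonary artery had been tied for 4 h and then released for 24 h, which gives ischemia at body temperature followed by reperfusion. The other 3 were naive lungs, whose labels name no operation. The time of day at which the lungs were taken is not given in the sources used here.

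The circadian clock is a transcription feedback loop that runs in nearly every cell. BMAL1, the product of Arntl, pairs with CLOCK or its paralogue NPAS2, binds E-box sequences and switches on the Per, Cry and Nr1d genes, Ciart and the transcription factor genes Dbp, Tef and Hlf. PER and CRY proteins then inhibit the pair, and NR1D proteins (REV-ERBs) repress Arntl, Npas2, Clock and Nfil3 through ROR elements. DBP, TEF and HLF activate genes with D-box sequences, and NFIL3 represses through the same sequences. Nfil3 is therefore no activator by function and is placed in that arm because its RNA peaks with that of Arntl. In mouse tissues, lung included, RNA of the activator arm is known to peak when RNA of the output arm is low.

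Promoter sequences were searched for the letters of the E-box, D-box and ROR elements named above, and only members with a match are printed below. They come from RefSeq (GRCm38.p6, the build that mm10 names). Of the 10 members, all except Per2 (9) matched a RefSeq promoter, in 13 windows that run from 250 bases before to 50 bases after an annotated start. Each is printed 5′ to 3′ on the strand of its gene. Capitals mark the E-box CACGTG in Ciart and Tef, the D-box TTATGNAA in Per3, and the ROR element ANTNGGTCA in Arntl and Nfil3. Both strands were searched, and in Arntl and Nfil3 the shorter ROR core TAGGTCA lies inside the element.
Ciart, chr3:95882179-95882478, minus strand: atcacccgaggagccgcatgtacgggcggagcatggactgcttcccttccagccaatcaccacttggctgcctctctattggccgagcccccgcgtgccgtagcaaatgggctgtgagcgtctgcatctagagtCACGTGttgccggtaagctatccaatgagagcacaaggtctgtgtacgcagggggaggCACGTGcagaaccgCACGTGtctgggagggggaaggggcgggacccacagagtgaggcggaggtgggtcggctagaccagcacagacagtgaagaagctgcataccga
Tef, chr15:81802423-81802722, plus strand: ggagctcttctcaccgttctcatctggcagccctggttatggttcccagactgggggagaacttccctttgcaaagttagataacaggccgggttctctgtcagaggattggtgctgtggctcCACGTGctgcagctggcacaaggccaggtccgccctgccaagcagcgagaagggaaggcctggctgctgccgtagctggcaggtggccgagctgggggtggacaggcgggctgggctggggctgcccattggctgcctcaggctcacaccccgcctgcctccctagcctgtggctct
Per3, chr4:151044616-151044915, minus strand: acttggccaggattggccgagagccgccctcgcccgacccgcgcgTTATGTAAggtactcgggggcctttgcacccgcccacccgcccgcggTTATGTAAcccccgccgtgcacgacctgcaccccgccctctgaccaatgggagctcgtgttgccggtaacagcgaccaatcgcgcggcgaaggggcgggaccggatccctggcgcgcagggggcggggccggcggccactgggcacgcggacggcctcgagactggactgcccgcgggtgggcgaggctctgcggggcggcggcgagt
Arntl, chr7:113207261-113207560, plus strand: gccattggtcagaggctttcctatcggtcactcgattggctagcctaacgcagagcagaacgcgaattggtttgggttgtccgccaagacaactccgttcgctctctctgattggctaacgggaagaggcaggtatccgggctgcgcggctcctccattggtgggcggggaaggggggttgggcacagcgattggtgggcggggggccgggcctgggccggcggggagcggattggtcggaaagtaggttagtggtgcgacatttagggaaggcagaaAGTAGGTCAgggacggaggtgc
Nfil3, chr13:52980990-52981289, minus strand: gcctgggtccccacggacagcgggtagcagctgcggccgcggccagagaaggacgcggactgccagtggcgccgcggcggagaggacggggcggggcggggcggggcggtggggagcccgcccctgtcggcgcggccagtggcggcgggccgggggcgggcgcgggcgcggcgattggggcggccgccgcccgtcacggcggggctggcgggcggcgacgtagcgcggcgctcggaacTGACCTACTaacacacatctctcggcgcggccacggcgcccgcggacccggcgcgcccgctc

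Ciart held 3 E-boxes, whose first bases lay 116, 58 and 44 bases before the start. Tef held 1 E-box in each of its 2 windows, 127 bases before the start in the window printed and 138 bases before it in the other. Of all 32851 RefSeq windows of the same length, 7.15% held CACGTG. The Per3 window held 2 D-boxes, 205 and 158 bases before the start, and 3.38% of all windows held that motif. The ROR element in Arntl began at base 29 after the start of the window printed, and the other Arntl window held 0. That in Nfil3 lay on the opposite strand, from 12 bases before the start. Of all windows, 2.24% held ANTNGGTCA and 2.61% held TAGGTCA. The windows of Npas2, Clock, Dbp and Hlf held none of these letters. The motifs were chosen with the windows in view, and a match describes letters only.

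Library totals ran from 20062818 to 23638078 counts in injured lungs and from 18913487 to 34986276 in naive lungs, where naive replicate 3 was the deepest. All 11 lung markers, such as Sftpc, Ager and Scgb1a1, were detected in every library. Of these edgeR and limma-voom called 0, with 3 at an unadjusted p under 0.05 in edgeR, and DESeq2 called 2 higher, Sftpa1 and the macrophage receptor gene Marco (log2 fold 0.35 and 1.79, DESeq2 adjusted p = 0.0038 and 0.00672). The summed level of 10 neutrophil markers was 626 to 1382 CPM (counts scaled to the library's TMM-adjusted size) in injured and 59.3 to 94.6 CPM in naive lungs, with 9 called higher by edgeR. That of 9 T cell markers was 59.1 to 69.2 CPM in injured and 107.1 to 115.8 CPM in naive lungs, with 4 called lower by edgeR. Over all genes edgeR called 3.11%, DESeq2 6.1% and limma-voom 2.87%, and 16.7% had an unadjusted p under 0.05 in edgeR. Naive replicate 3 lay inside the naive range in the neutrophil and T cell sums, at 76.7 and 110 CPM. Its summed red cell markers were the highest of all, at 247 CPM against 47.4 to 126 CPM in injured lungs and 25.1 and 71.2 CPM in the other naive lungs. Heart muscle markers summed to 136 to 685 CPM in injured and 492 to 892 CPM in naive lungs, and the part of any of these cells in the results below was not tested. In whole lungs, fewer cells of a type and less RNA per cell cannot be told apart.

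In the clock genes naive replicate 3 stood apart from the other naive lungs. In naive replicates 1 and 2 the output arm was high and the activator arm low. In all 3 injured lungs, and in naive replicate 3, the activator arm was high and the output arm low on average over its genes. Single genes departed from this. In injured replicate 2 Dbp and Tef lay slightly above their means over the 6 libraries, by 0.11 and 0.13 in log2 CPM. In Per2 and Ciart naive replicate 3 stayed above every injured lung. The pattern shows in the plot of levels by library, and each member's fold change below is given with and without naive replicate 3. Each library was left out in turn, and this one is printed because its clock values stood apart. The larger fold changes and smaller SEs without it came with that choice and are not better estimates.

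**Figure D1:**
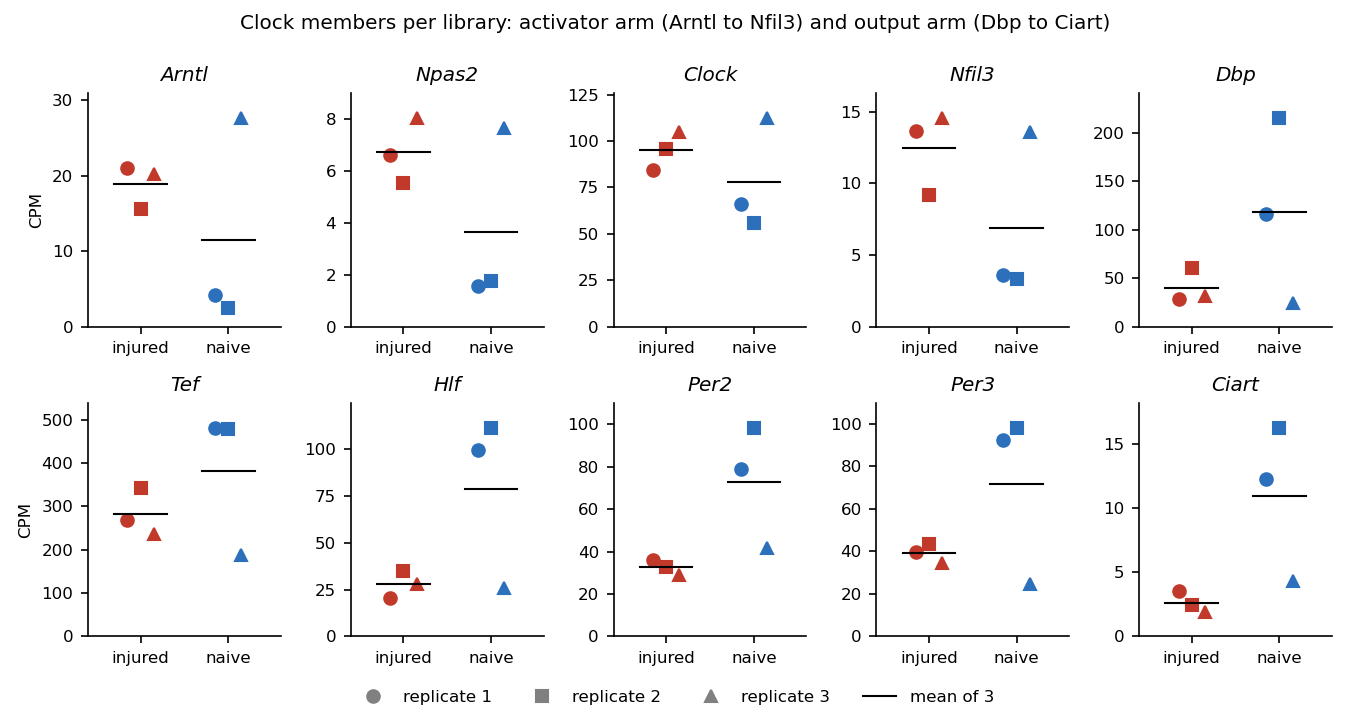
Level of each of the 10 genes in CPM (y axis, linear, from 0) in the 3 injured and 3 naive lungs. Points are single lungs, with symbols for replicates, and lines are means of 3. The naive lung marked by a triangle lies within or beyond the range of the injured lungs in 8 of the 10 panels, all except those of Per2 and Ciart.

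Arntl encodes BMAL1, the partner that both CLOCK and NPAS2 need. It had 425, 351 and 479 counts in injured replicates 1 to 3, against 125, 46 and 945 counts in naive replicates 1 to 3. Scaled to depth these were 21.1, 15.6 and 20.2 CPM in injured lungs, against 4.20, 2.43 and 27.7 CPM in naive lungs. Naive replicate 3 was the highest of the 6 lungs and the other 2 naive lungs the lowest. The fitted log2 fold change of injured over naive lungs was 0.70 ± 0.98 (SE) with all libraries and 2.48 ± 0.25 without naive replicate 3. Leaving out naive replicate 1 or 2 instead gave 0.29 ± 1.05 and 0.24 ± 0.84.

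Npas2, which encodes the paralogue that can stand in for CLOCK, was the activator of lowest abundance. It had 133, 125 and 190 counts in injured lungs, against 46, 33 and 261 counts in naive lungs. The 33 counts carry an exact 95% Poisson interval of 22.7 to 46.3, which covers counting error only. Its level was 5.54 to 8.02 CPM in injured lungs, against 1.55, 1.75 and 7.64 CPM in naive replicates 1 to 3, so naive replicate 3 lay inside the injured range and the other 2 below it. For Npas2 the log2 fold change was 0.85 ± 0.63 (SE) with all libraries and 2.03 ± 0.26 without naive replicate 3.

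Clock, the DNA-binding partner of BMAL1, differed least within this arm. Its counts were 1702, 2163 and 2481 in injured lungs, against 1956, 1059 and 3836 in naive lungs. In CPM these were 84.4, 95.8 and 104.7 in injured lungs, against 65.7, 56.0 and 112 in naive lungs. As with Arntl, naive replicate 3 exceeded every injured lung while the other 2 naive lungs lay below all of them. That gave Clock a log2 fold change of 0.28 ± 0.26 (SE) with all libraries and of 0.64 ± 0.12 without naive replicate 3.

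Nfil3, the D-box repressor, also has roles in lymphoid and myeloid cells. It had 828 counts over the 3 injured lungs and 636 counts over the 3 naive lungs. Its level was 13.7, 9.17 and 14.6 CPM in injured lungs, against 3.63, 3.33 and 13.6 CPM in naive lungs. Naive replicate 3 again lay within the injured range. With all libraries its log2 fold change was 0.84 ± 0.61 (SE), and without naive replicate 3 it was 1.83 ± 0.24.

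Dbp, Tef and Hlf encode the 3 PAR-domain basic leucine zipper activators of D-box genes. Dbp had 564, 1371 and 752 counts in injured lungs, against 3452, 4063 and 812 counts in naive lungs. In CPM these were 28.0, 60.7 and 31.7 in injured lungs, against 116, 215 and 23.8 in naive lungs. Naive replicate 3 was the lowest of the 6 lungs, below every injured one. For Dbp the log2 fold change was -1.55 ± 0.90 (SE) with all libraries and -2.05 ± 0.51 without naive replicate 3. It was -1.57 without naive replicate 1 and -0.80 without naive replicate 2.

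Tef, the most abundant member, had 5389, 7703 and 5583 counts in injured lungs, against 14295, 9055 and 6437 counts in naive lungs. Its level was 267, 341 and 236 CPM in injured lungs, against 480.5, 479 and 188 CPM in naive lungs. The groups overlapped through naive replicate 3, the lowest of all 6. Its log2 fold change was -0.44 ± 0.40 (SE) with all libraries and -0.78 ± 0.15 without naive replicate 3.

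Hlf had 410, 787 and 663 counts in injured lungs, against 2962, 2103 and 881 counts in naive lungs. Scaled to depth, these were 20.3, 34.9 and 28.0 CPM in injured lungs, against 99.6, 111 and 25.8 CPM in naive lungs. Naive replicate 3 lay inside the injured range. Hlf had a log2 fold change of -1.50 ± 0.62 (SE) with all libraries and of -1.93 ± 0.21 without naive replicate 3.

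Per2, Per3 and Ciart encode negative parts of the loop that BMAL1 itself switches on. Per2, one of the PER inhibitors, had 722, 738 and 687 counts in injured lungs, against 2349, 1856 and 1427 counts in naive lungs. Its level was 35.8, 32.7 and 29.0 CPM in injured lungs, against 79.0, 98.2 and 41.8 CPM in naive lungs. The groups did not overlap, although naive replicate 3 lay closer to the injured lungs than to the other naive lungs. Its log2 fold change was -1.16 ± 0.31 (SE) with all libraries and -1.45 ± 0.12 without naive replicate 3.

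Per3, a PER protein that mice can lose without losing rhythms, had 799, 976 and 821 counts in injured lungs, against 2747, 1851 and 837 counts in naive lungs. In CPM these were 39.6, 43.2 and 34.6 in injured lungs, against 92.3, 97.9 and 24.5 in naive lungs. Unlike Per2, it was lower in naive replicate 3 than in any injured lung. The log2 fold change was -0.87 ± 0.56 (SE) with all libraries and -1.29 ± 0.11 without naive replicate 3.

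Ciart, also named Chrono, encodes a repressor of the BMAL1 complex and was the output gene of lowest abundance. It had 71, 56 and 45 counts in injured lungs, against 366, 307 and 148 counts in naive lungs. Its level was 3.52, 2.48 and 1.90 CPM in injured lungs, against 12.3, 16.2 and 4.33 CPM in naive lungs. The groups did not overlap, although naive replicate 3 again lay closer to the injured lungs than to the other naive lungs. Ciart had the largest log2 fold change of the 10, at -2.05 ± 0.51 (SE) with all libraries. Without naive replicate 3 the log2 fold change was -2.45 ± 0.26, just below that of Arntl in size.

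**Figure D2:**
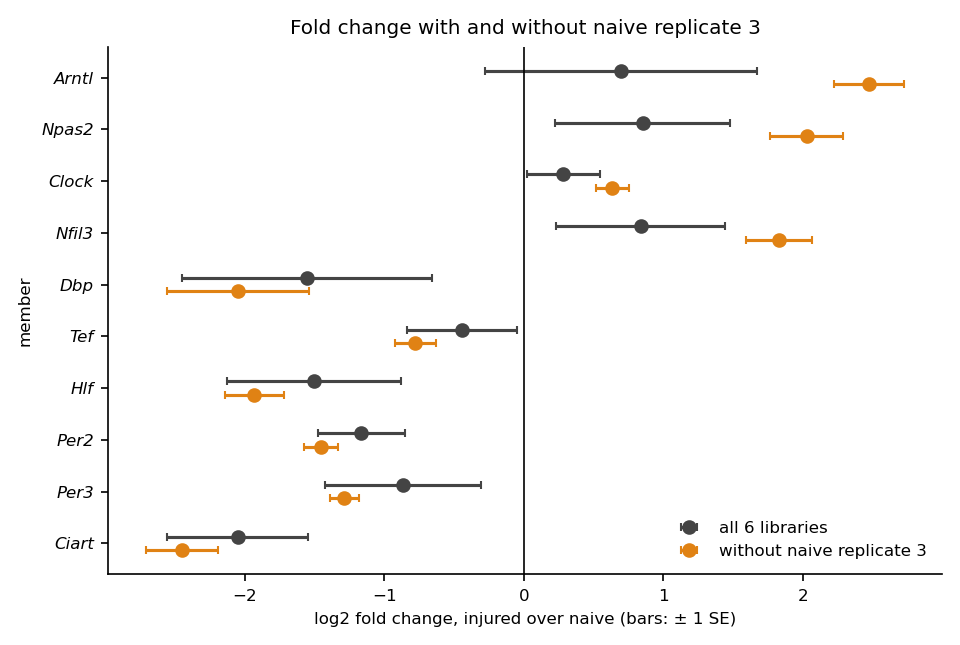
Log2 fold change of injured over naive lungs (x axis) for each of the 10 genes (y axis), with bars of 1 SE from the fit across all genes. Grey points use all 6 libraries and orange points leave out naive replicate 3. The 4 activator genes lie above 0 and the 6 output genes below it in both fits, and leaving out that lung moved every point away from 0, Arntl the farthest, to 2.48.

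With all 6 libraries, edgeR's quasi-likelihood test called 0 of the 10 members at an adjusted p under 0.05, against 3.11% of the 15486 genes tested. At an unadjusted p under 0.05 there were 2 members, Per2 and Ciart, against 16.7% of all genes. DESeq2 called the same 2 lower, beside 6.1% of all genes, and limma-voom called 0 members, beside 2.87%. In the authors' deposited table Per2 and Ciart were also the 2 members with an adjusted p under 0.05, beside 6.15% of genes. The groups did not overlap in CPM for these 2 members, as for 22.9% of the genes tested. Without naive replicate 3, edgeR called 9 members, all except Dbp, 4 of them higher and 5 lower in injured lungs, beside 2.8% of all genes (1.87% higher and 0.929% lower). It called 0 members without injured replicate 1, 2 or 3, beside 1.39%, 2.12% and 2.95% of all genes, and 0 without naive replicate 1 or 2, beside 2.22% and 1.24%. The signs of all 10 fold changes were the same in each of these fits. As the contrast chose the members, nothing is read from these counts.

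The median log2 fold change was 0.77 over the 4 activator genes and -1.33 over the 6 output genes, while that of all genes tested was -0.00096. Without naive replicate 3 the medians were 1.93 and -1.69, beside -0.0021 over all genes. Naive replicates 1 and 2 lay on the same side of every injured lung, with naive replicate 3 within or past the injured range, for 8 of the 10 members. That pattern, defined after the values were seen, was met by 13.8% of all genes tested. In Arntl, Clock, Dbp, Tef and Per3 naive replicate 3 went past the injured range altogether, as in 5.17% of genes.

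**Figure D3:**
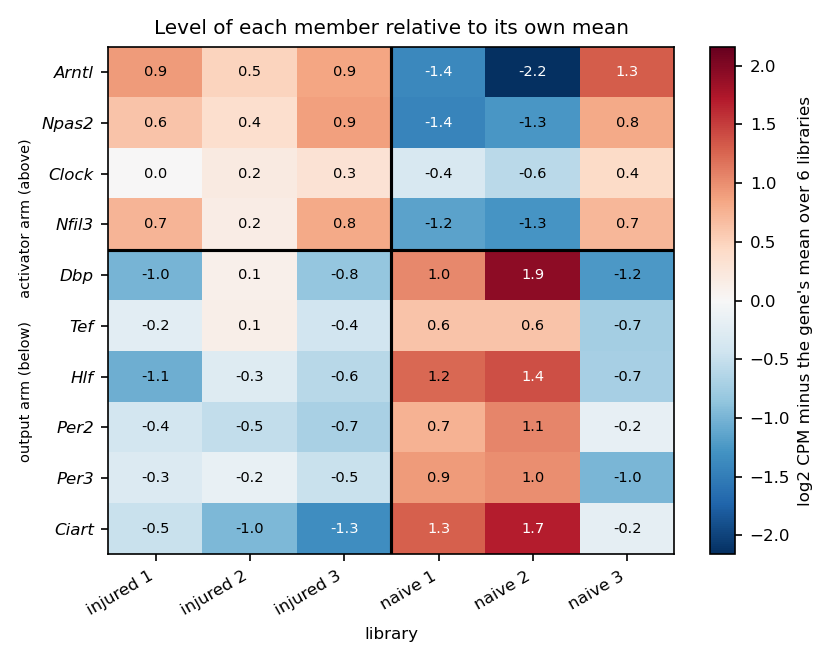
Log2 CPM of each gene minus its own mean over the 6 libraries (colour and printed value), with genes in rows and single lungs in columns, injured lungs on the left. Activator genes are above the line and output genes below it. Naive replicates 1 and 2 have blue activator and red output rows, whereas naive replicate 3 has the opposite colours, as most cells of the injured lungs do.

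The spread between lungs of a group was wider in the naive mice with all libraries, and this rested on naive replicate 3. The SD of log2 CPM over the 3 lungs had a median of 0.27 over the members in injured lungs and 1.13 in naive lungs, and it was larger in naive lungs for 10 of 10 members. Over all genes tested the medians were 0.15 in injured and 0.17 in naive lungs, and the SD was larger in naive lungs for 53.4% of genes. The members were chosen from these same counts and share the same lungs, so they are not 10 separate observations. Nothing is read from their count beside that of all genes. Without naive replicate 3, chosen as an alternative after the values were seen, the SD over the remaining 2 naive lungs had a median of 0.14 over the members and was larger than in injured lungs for 4 of the 10, beside 0.11 and 36.6% over all genes. The highest level of Arntl was 1.36 times the lowest among injured lungs and 11.4 times the lowest among naive lungs, or 1.73 times without naive replicate 3. For Dbp these ratios were 2.17 in injured and 9.04 in naive lungs, and the naive ratio without naive replicate 3 was 1.85, below the injured one. For Clock the ratio was 1.24 in injured and 2.00 in naive lungs, the narrowest naive range of the 10 with all libraries, and 1.17 in naive lungs without naive replicate 3.

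The ratio of a gene of one arm to a gene of the other within a library needs no scaling between libraries. Per length, in FPKM, the ratio of Arntl to Dbp was 0.464, 0.158 and 0.392 in injured replicates 1 to 3, against 0.0223, 0.00697 and 0.717 in naive replicates 1 to 3. An index, the mean centred log2 CPM of the output genes minus that of the activator genes, was -1.14, -0.58 and -1.45 in injured lungs, against 2.06, 2.60 and -1.49 in naive lungs. Injured replicate 2 had the highest index of the injured lungs and the highest Dbp, Tef, Hlf and Per3 among them. Injured replicate 3 and naive replicate 3 lay together at the low end.

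Per length, Tef was the most abundant member in both groups, at 64.2 ± 12.5 FPKM in injured and 86.8 ± 39.0 FPKM in naive lungs (SD, n = 3 each). Dbp came next, at 22.6 ± 10.1 FPKM in injured and 66.1 ± 53.6 FPKM in naive lungs, and in naive lungs it differed from Tef by less than the SD of either. Clock followed in injured lungs, at 12.8 ± 1.35 FPKM, and averaged 10.3 ± 3.81 FPKM in naive lungs. Per3, Arntl, Nfil3, Per2 and Hlf came next in injured lungs, with averages between 6.56 and 4.94 FPKM in that order. Per2 and Hlf differed by more than the SD of Per2 and less than that of Hlf, and the other neighbours differed by less than the SD of either. In naive lungs the averages of these 5 ran from 3.34 FPKM for Nfil3 to 14.0 FPKM for Hlf. Npas2 and Ciart were lowest in injured lungs, at 1.59 ± 0.292 and 1.36 ± 0.427 FPKM, and averaged 0.847 ± 0.793 and 5.65 ± 3.16 FPKM in naive lungs.

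Among the other genes of the loop, edgeR called 0 of 10 tested at an adjusted p under 0.05, out of 11 listed, Rorb being filtered out. At an unadjusted p under 0.05 there were 2, DESeq2 called 2 and limma-voom 0, and the median log2 fold change was -0.41. Over all genes edgeR called 3.11%, DESeq2 6.1% and limma-voom 2.87%, and 16.7% had an unadjusted p under 0.05 in edgeR. Nr1d1, which encodes REV-ERB alpha, a repressor of Arntl, was at 111, 180 and 102 CPM in injured lungs, against 177, 277 and 210.5 CPM in naive lungs. Here naive replicate 3 stayed with the naive lungs, and the log2 fold change was -0.76 ± 0.26 (SE, edgeR adjusted p = 0.219) with all libraries and -0.80 ± 0.34 without naive replicate 3 (edgeR adjusted p = 0.344). Nr1d2, which encodes REV-ERB beta, was at 89.4, 135 and 96.5 CPM in injured lungs, against 179, 211 and 102 CPM in naive lungs (log2 fold -0.61 ± 0.30, edgeR adjusted p = 0.380). In this gene naive replicate 3 lay within the injured range, and without it the log2 fold change was -0.87 ± 0.18 (edgeR adjusted p = 0.0602).

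Per1, a PER gene that also answers acute signals, was at 50.9, 105 and 83.0 CPM in injured lungs, against 201, 151 and 98.6 CPM in naive lungs (log2 fold -0.91 ± 0.37, edgeR adjusted p = 0.309). Cry1, a CRY inhibitor, was at 22.8, 17.1 and 21.2 CPM in injured lungs, against 27.1, 28.5 and 18.7 CPM in naive lungs (log2 fold -0.28 ± 0.17, edgeR adjusted p = 0.481). In both genes naive replicate 3 lay within the injured range and the other naive lungs above it. Without that lung the log2 fold change was -1.14 ± 0.35 for Per1 and -0.45 ± 0.14 for Cry1 (edgeR adjusted p = 0.209 for Per1 and 0.123 for Cry1). Cry2, the other CRY inhibitor, named after its values were seen, was at 51.0, 63.9 and 47.3 CPM in injured lungs, against 83.6, 78.5 and 71.8 CPM in naive lungs. Its groups did not overlap, and it just missed the threshold (log2 fold -0.53 ± 0.12, edgeR adjusted p = 0.0514). Without naive replicate 3 Cry2 was the 1 gene of the list that was called (log2 fold -0.59 ± 0.13, edgeR adjusted p = 0.0477).

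**Figure D4:**
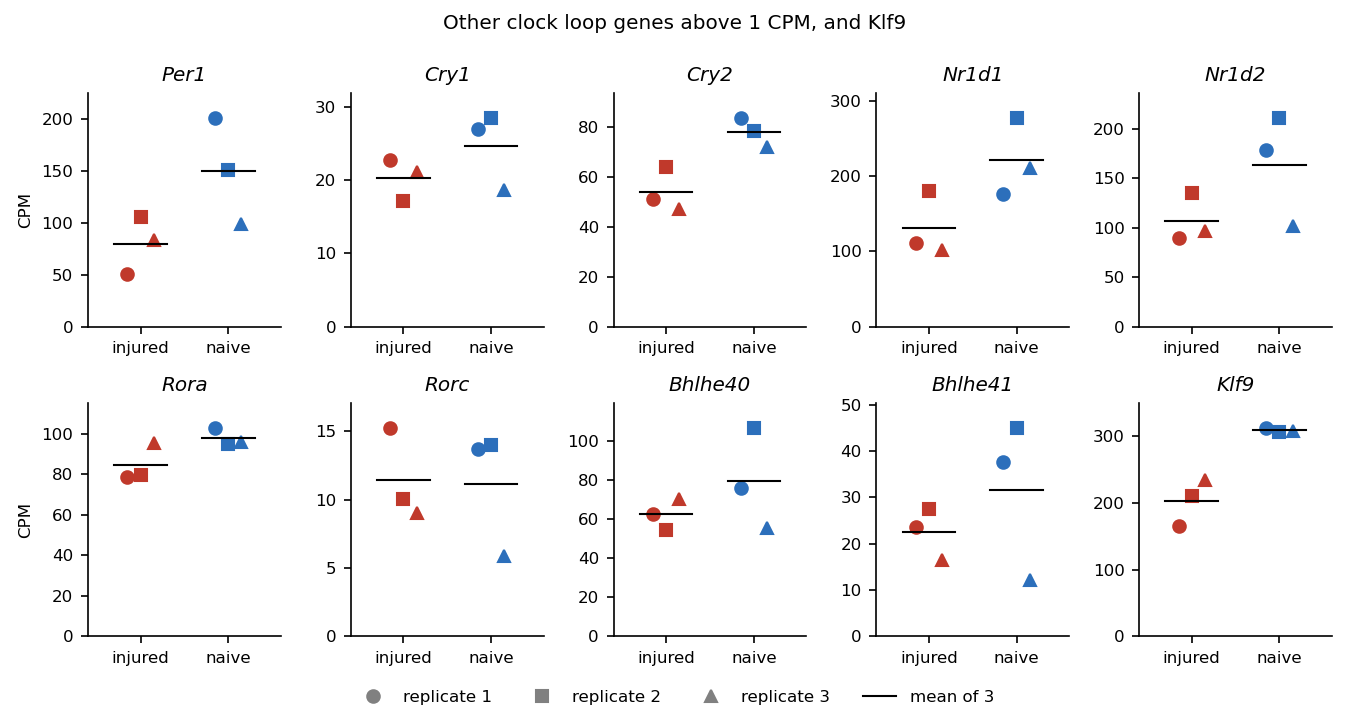
Level in CPM (y axis, linear, from 0) of the 9 other clock loop genes above 1 CPM and of Klf9 in single injured and naive lungs, with lines for means of 3. The naive lung marked by a triangle lies with the injured lungs for Per1, Cry1, Nr1d2, Bhlhe40 and Bhlhe41 and with the naive lungs for Cry2, Nr1d1, Rora and Klf9.

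Of 8 genes that cycle in many mouse tissues, edgeR called 1 lower and 0 higher at an adjusted p under 0.05, beside 3.11% of all genes tested. The median log2 fold change was -0.45, and 6 of the 8 lay below 0. At an unadjusted p under 0.05 in edgeR there were 3, beside 16.7% of all genes, and DESeq2 called 3, beside 6.1%. The gene called by edgeR was Klf9, a Krüppel-like transcription factor gene that responds to glucocorticoids and to the clock. Klf9 was at 166, 210 and 234 CPM in injured lungs, against 312, 306 and 308 CPM in naive lungs, so all 3 naive lungs lay close together. Its log2 fold change was -0.60 ± 0.12 (SE, edgeR adjusted p = 0.0288). Leaving out any library but injured replicate 3 ended the call, with 0.113 as the largest adjusted p. Its log2 fold change without naive replicate 3 was -0.61 ± 0.14 (edgeR adjusted p = 0.0589). Without naive replicate 3, Usp2, a deubiquitinase gene, and Wee1, a cell cycle kinase gene, were the 2 called instead, both lower, and were named after their values were seen. Usp2 was at 10.5, 12.4 and 10.6 CPM in injured lungs, against 20.97, 19.7 and 8.43 CPM in naive lungs. Wee1 was at 12.1, 15.3 and 11.1 CPM in injured lungs, against 22.0, 24.3 and 16.3 CPM in naive lungs, so its groups did not overlap.

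No gene passed the test in a list of kinase and ubiquitin ligase genes, with the deubiquitinase gene Usp7, whose products act on clock proteins. Of 10 tested, edgeR, DESeq2 and limma-voom called 0, beside 3.11%, 6.1% and 2.87% of all genes. At an unadjusted p under 0.05 in edgeR there were 0, beside 16.7%, and the median log2 fold change was -0.01. Csnk1d, which encodes a casein kinase that phosphorylates PER proteins, averaged 139 CPM in injured and 145 CPM in naive lungs (log2 fold -0.06 ± 0.09, edgeR adjusted p = 0.804), and the sign turned without naive replicate 3 (log2 fold 0.02 ± 0.08). Csnk2b, which encodes the regulatory subunit of casein kinase 2, had a log2 fold change of 0.08 ± 0.10 (edgeR adjusted p = 0.768) and 0.08 ± 0.11 without naive replicate 3.

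The genes whose log2 CPM followed the index most closely over the 6 libraries, among 14209 with a mean of 1 CPM or more, were AW554918, Pdxk, Pax5 and Hectd2. Their Pearson correlations with the index ran from 0.988 to 0.997. Pdxk, a pyridoxal kinase gene, was at 56.1, 59.6 and 53.1 CPM in injured lungs, against 78.2, 83.5 and 50.6 CPM in naive lungs. The most opposite were Pmvk, Ept1, Adamts15 and Ppp4c, with correlations from -0.996 to -0.992. Adamts15, a secreted metalloproteinase gene, was at 106, 103 and 121 CPM in injured lungs, against 54.7, 49.6 and 131 CPM in naive lungs. In all 8, naive replicate 3 lay within or beyond the injured range and the other naive lungs outside it. As the 8 were picked for following the index, that pattern came with the choice and is no separate result. The points are the same 6 libraries that gave the index, and none of the 8 was called (edgeR adjusted p from 0.260 to 0.761).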

How the data were processed

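Read counts per gene, normalized counts and FPKM of 6 libraries were deposited by the authors in 1 table, with log2 fold changes, p-values and adjusted p-values of their own. Per the submitters' processing notes, STAR, HTSeq, DESeq2, edgeR and STAR-Fusion were used with mm10; the sources used here give no versions or settings and not the strand of counting. The deposited normalized counts are a signal that equals the counts divided by 1 factor per library, and the deposited FPKM follow from counts, gene lengths and column totals. The authors' deposited log2 values were not used for any result.

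Counts were filtered by filterByExpr, scaled by TMM and fitted with edgeR 4.0.16 (limma 3.58.1, R 4.3.3), group as the only term, by the robust quasi-likelihood test. Benjamini-Hochberg adjustment ran over all genes tested, two-sided, with calls at an adjusted p under 0.05. SEs come from the F statistic. Log2 CPM used a prior count of 2. Members and lists were chosen with earlier results of these data known. Genes outside the members were named by rule: the 3 largest called changes each way in a list or its 2 most abundant genes, always Nr1d1, Per1 and Cry1, and the 4 most alike and 4 most opposite to the index. Noct was found under its older symbol Ccrn4l. Lungs of a group were taken as separate mice, which the labels do not state; otherwise p-values measure technical spread.

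Tested on simulated data for this comparison (15303 genes), edgeR found 97 of 100 genes with a true log2 change of 2, found 72 of 100 with a true log2 change of 1, and made 14 false calls among 183. The changed genes were drawn at random and no lung was set apart, so recovery of genes spread like the members was not tested. In GENCODE M21, Dbp shares 491 of its 2945 exon bases with Sphk2 on the opposite strand, Tef 193 of 7865 with Gm17597 and Arntl 33 of 7519 with Gm45355, so their reads may be shared. Sphk2 had 943 to 1116 counts in injured and 587 to 1480 counts in naive lungs. Alternatives were DESeq2 1.42.0 and its size factors, library size alone, other filters, limma-voom, the replicate number as a block and each library left out.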

Additional observations from a re-analysis of the deposited data

How the results depend on the processing

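The members called numbered 0 with library size alone, DESeq2's size factors, no filter, a filter of 1 CPM in 3 samples and limma-voom. The share of all genes called by limma-voom was 2.87%. DESeq2 called 2 members, beside 6.1% of all genes. With the replicate number as a block 2 were called, beside 621 genes over the whole table. With 1 library left out 0 to 9 were called, the 9 without naive replicate 3, beside 2.8% of all genes. Of the members' log2 fold changes, those of Arntl, Npas2 and Nfil3 moved the farthest, in the fit without naive replicate 3. Each of these moves was larger than the gene's SD of log2 CPM between injured lungs and smaller than that between all naive lungs. No member changed sign in any fit. The genes called over the whole table numbered 482, and 976 by DESeq2, 729 with no filter, 621 with the replicate block and 195 to 463 with 1 library left out, with 195 without naive replicate 2 and 220 without injured replicate 1. Calls among the other loop genes numbered 2 by DESeq2, 1 with DESeq2's size factors, 1 with no filter, 2 with the replicate block and 0 to 2 with 1 library left out. Among the genes that cycle in many tissues they numbered 3 by DESeq2, 2 with no filter, 2 with the replicate block and 0 to 2 with 1 library left out. Nr1d1 was called by DESeq2, with the replicate block and without injured replicate 2 (log2 fold -1.05). The log2 fold change of Csnk1d ran from -0.11 to 0.016 with 1 library left out, above 0 only without naive replicate 3. The causes were not tested.

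The replicate numbers are not said to pair mice. Deviations from the group means correlated at 0.08, -0.09 and 0.15 across genes between lungs numbered 1, 2 and 3, and injured replicate 2 correlated best with naive replicate 1, at 0.28. The index of each lung moved by less than the SD of its group with library size alone or without Nfil3. Of the 8 genes named as most alike or opposite to the index, 1 was also named from deviations from the group means. With 3 lungs a group, the members called numbered 0 with all libraries, beside 3.11% of all genes. Without naive replicate 3 they numbered 9, beside 2.8% of all genes. As the contrast chose the members, nothing is read from these counts. Npas2 and Ciart rest on as few as 33 and 45 counts in a library.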
